A study of Mus musculus with 6 samples.

Results

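The genes described here are 10 transcripts that mark macrophages or are made mainly by them: the surface and lysosomal markers Cd68, Csf1r, Mrc1, Cd163, Msr1, Cd14 and Clec7a, and the 3 chains of complement C1q, C1qa, C1qb and C1qc. They were chosen by name, as every non-control probe that the array files assign to 1 of these 10 symbols, which gave 13 of the 55681 probes; all 10 genes were among the 24757 genes and other features that could be tested. Total RNA came from 3 biopsies of skin tumors and 3 biopsies of healthy skin of female FVB/N mice, each measured with Cy3 on its own 1-colour Agilent array. The labels name all 3 tumors cSCC, cutaneous squamous cell carcinoma. For the tumors, DMBA, a carcinogen that forms DNA adducts, was put on the skin before the phorbol ester PMA (also called TPA), a tumor promoter, for 6 weeks, and by a second DMBA dose in week 8 with 14 further weeks of PMA; papillomas and tumors were collected at several times of this protocol. The healthy skin was treated with acetone. Tumor growth and exposure to DMBA and PMA therefore cannot be told apart. Beyond cSCC, the labels give neither the stage of each tumor nor the age of the mice. They also do not say whether the biopsies of a group came from different animals. The p-values then weigh the group difference against the spread between samples, which may be technical, and need not hold across animals.

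Macrophages of the skin are tissue phagocytes, in part seeded before birth and in part replaced from blood monocytes, and they survive on signals through the receptor encoded by Csf1r. Each carries a changing set of receptors for microbial products, dead cells and modified lipoproteins, so that markers of the same lineage can move apart. C1q, the recognition molecule of the classical complement pathway, is assembled from equal numbers of A, B and C chains, and tissue macrophages and dendritic cells are its main source, unlike most complement proteins, which come mainly from the liver.

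Macrophage markers did not move as a block between tumors and healthy skin. Clec7a and Cd14 rose strongly in tumors, Cd68 rose by less and close to the threshold, Cd163 fell on a very dim probe, and Msr1, Csf1r, Mrc1 and all 3 C1q chains did not pass the test. In limma's moderated test with Benjamini-Hochberg adjustment over all features, 3 of the 10 genes were higher at an adjusted p under 0.05, against 10.3% of all features, and 1 was lower, against 15.6% of all features. Either direction together took 25.9% of all features. The 10 genes were chosen with earlier results of these data known, so their counts beside these shares are a description. In 4 of the 10 genes every tumor array lay above every healthy skin array, against 20.7% of all features, in 1 every tumor array lay below, against 29.0%, and in 5 the groups overlapped. The median log2 fold change was 0.89 over the 10 genes and -0.16 over all features. In bulk tissue, fewer cells of a type and less RNA per cell cannot be told apart.

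Levels are given as the array's processed signal divided by that array's own 75th percentile, so that 1 is the 75th percentile of the array, and log2 values are of this ratio. That percentile was 648 to 897 units of signal on the tumor arrays, against 242 on healthy skin 3 and 525 and 654 on the other healthy skins. Median local background was 85 on tumor 1 and 23 to 26 elsewhere. Correlations over all features were 0.959 to 0.966 among tumors, 0.937 to 0.971 among healthy skins and 0.821 to 0.894 between the groups. On the array scale tumor 3 was the highest tumor for 9 of the 10 genes, against 25.7% of all features, and healthy skin 3 was the lowest healthy skin for 9 of the 10, against 30.3% of all features.

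**Figure D1:**
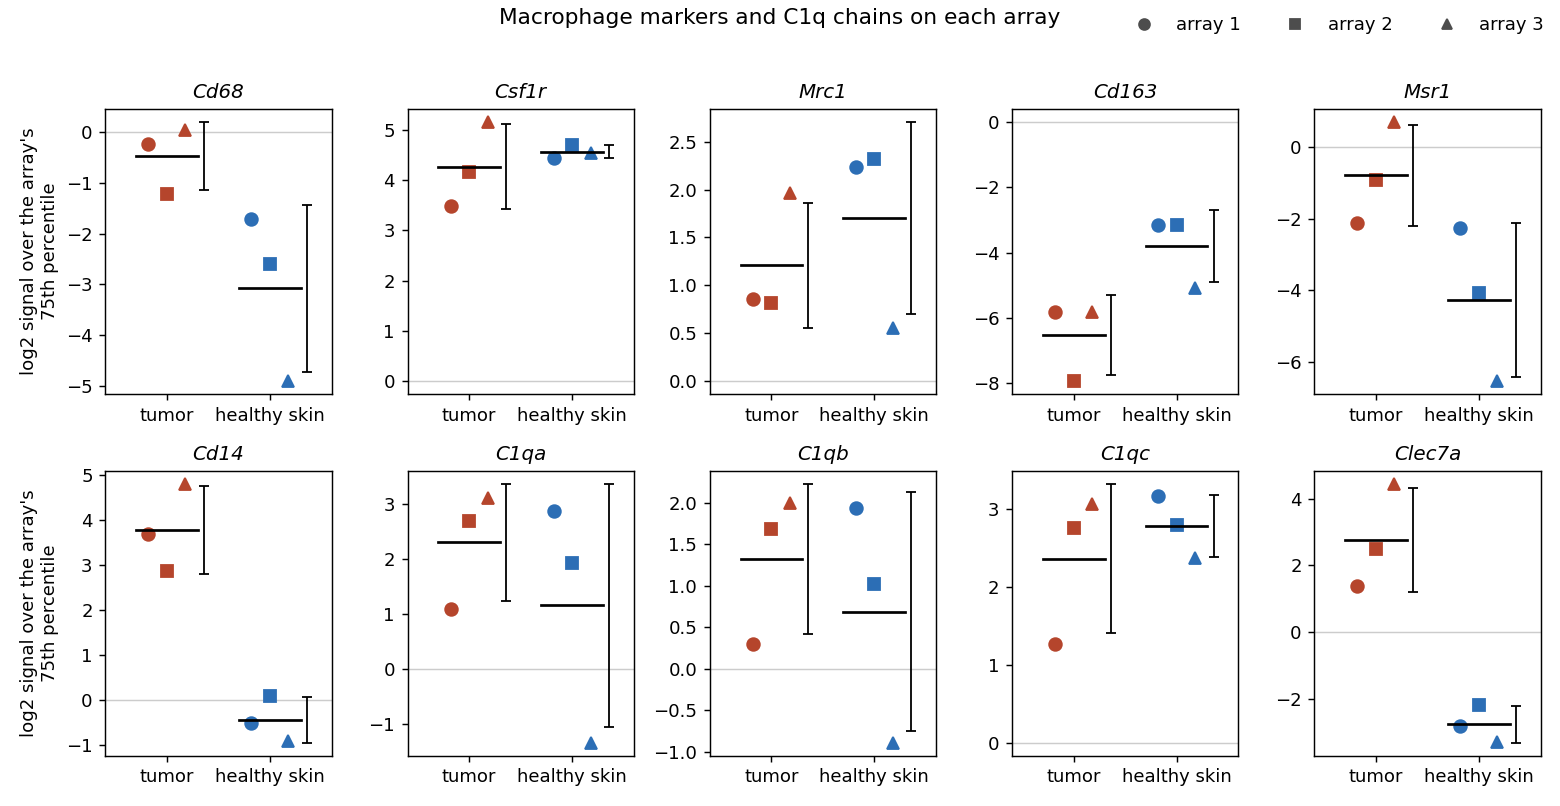
Level of each of the 10 genes on each array, as log2 of the processed signal over the array's 75th percentile, with tumors in red on the left and healthy skins in blue on the right of each panel. Bars are group means, whiskers are SD over n = 3 arrays and the marker shape gives the array number; the groups are apart for Clec7a, Cd14, Msr1, Cd68 and Cd163 and overlap for Csf1r, Mrc1 and the C1q chains.

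The 3 C1q genes are measured by different probes, which are shown because their values part company on a single array. Their positions, as the array files give them on mm9, are all on the minus strand of chromosome 4, at chr4:136452409-136452468 for C1qa, chr4:136436578-136436637 for C1qb and chr4:136445766-136445825 for C1qc. In the RefSeq annotation of GRCm38.p6 the 3 genes lie side by side, C1qb, C1qc and C1qa, within 18719 bases from 136880126 to 136898844. Only the first 30 of the 60 bases of the C1qc probe are printed. The longest run of bases that any pair of these probes has in common is 5 for C1qa and C1qb and 6 for each of them with C1qc.
C1qa probe: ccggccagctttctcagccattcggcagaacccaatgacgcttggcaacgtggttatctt
C1qb probe: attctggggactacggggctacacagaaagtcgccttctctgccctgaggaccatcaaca
C1qc probe: tctgggaaccacctaatggtattattcctg

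C1qa, the A chain, had a relative signal of 2.15, 6.51 and 8.70 in tumors 1 to 3, against 7.39, 3.83 and 0.397 in healthy skins 1 to 3. The groups overlapped, and both the lowest value and the second highest were healthy skins. The log2 fold change was 1.15 ± 1.07 (SE, n = 3 each, 95% interval -1.35 to 3.64, limma adjusted p = 0.449). C1qb, the B chain, had 1.23, 3.20 and 3.99 in tumors, against 3.82, 2.02 and 0.539 in healthy skins, and a log2 fold change of 0.64 ± 0.76 (SE, n = 3 each, 95% interval -1.14 to 2.41, limma adjusted p = 0.559). Its order over the arrays was that of C1qa, with tumor 1 low among the tumors and healthy skin 3 lowest of all.

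C1qc, the C chain, had 2.41, 6.76 and 8.36 in tumors, against 9.01, 6.91 and 5.19 in healthy skins, with a log2 fold change of -0.42 ± 0.50 (SE, n = 3 each, 95% interval -1.59 to 0.76, limma adjusted p = 0.565). Tumor 1 was again the low tumor, but healthy skin 3 stayed close to the other healthy skins. This probe is spotted 10 times per array, and its spots had a coefficient of variation of 1.78 to 5.10%, so that its spot noise is small beside the differences between arrays. The probes of C1qa and C1qb have 1 spot each per array, so their spot noise could not be measured. The 3 chains ran together on 5 arrays and apart on healthy skin 3, where C1qa and C1qb were far below their own means and C1qc was not. Without that array the log2 fold changes of the chains were -0.10 for C1qa, -0.15 for C1qb and -0.62 for C1qc, and none passed the test. With the slide row as a block, which leaves healthy skin 3 as the only healthy skin beside the tumors, the log2 fold change of C1qa was 3.64 with a limma adjusted p of 0.0264. The 95% intervals hold differences of more than 1 on the log2 scale both ways for C1qa and C1qb and downward for C1qc, so these arrays show neither a change of C1q nor its absence.

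**Figure D2:**
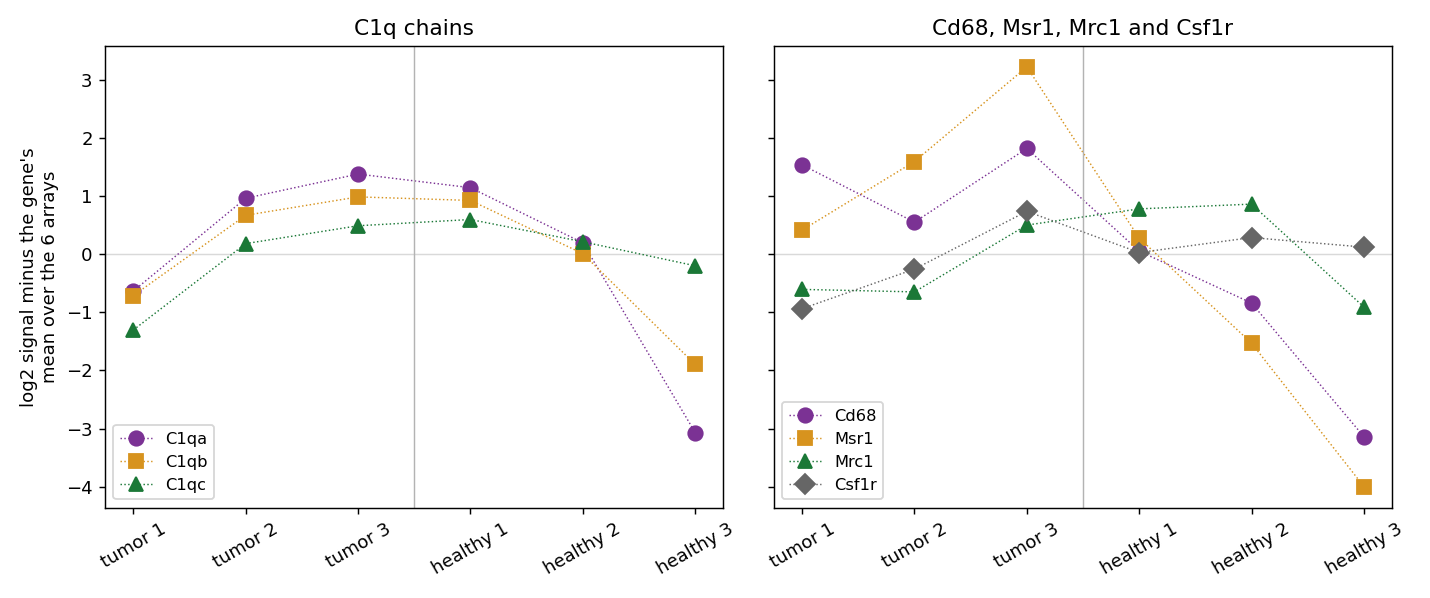
Level on each array as log2 signal minus the gene's own mean over the 6 arrays, for the C1q chains on the left and for Cd68, Msr1, Mrc1 and Csf1r on the right; tumors stand left of the vertical line and healthy skins right of it, and dotted lines only join the points of a gene. C1qa, C1qb, Cd68, Msr1 and Mrc1 are lowest on healthy skin 3, while C1qc and Csf1r, drawn from its brightest probe, are not.

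Csf1r, the receptor for the macrophage growth factors CSF1 and IL-34, had a relative signal of 11.1, 17.8 and 35.6 in tumors, against 21.7, 26.0 and 23.2 in healthy skins. On this probe, its brightest, the healthy skins lay close together and inside the range of the tumors. The log2 fold change was -0.30 ± 0.44 (SE, n = 3 each, 95% interval -1.32 to 0.72, limma adjusted p = 0.636). Its other probes gave log2 fold changes of 0.53 ± 0.68 and 0.04 ± 0.28 (SE, n = 3 each, limma adjusted p = 0.588 and 0.935 with every probe tested by itself), so none of its 3 probes passed and they differed in sign. On the first of these other probes healthy skin 3 was the lowest of all arrays. Its relative signal there was 0.227, against 0.857 and 0.756 in the other healthy skins and 0.369 to 1.64 in tumors. All 3 probes lie on chromosome 18, the brightest at chr18:61290725-61290784 on the plus strand of mm9. Of the 2 ligands, Il34, which keratinocytes make, fell with a log2 fold change of -1.53 ± 0.45 (SE, n = 3 each, limma adjusted p = 0.0427). It had 3.95, 2.22 and 2.03 in tumors against 5.03, 6.50 and 13.02 in healthy skins, with no overlap, and its call held in 2 of the 6 fits that leave out an array. The log2 fold change of Il34 was -1.16 under median scaling and -0.63 under spike-in scaling, and it passed in neither (limma adjusted p = 0.0819 and 0.531). Csf1 had a log2 fold change of -0.30 ± 0.65 (SE, n = 3 each, limma adjusted p = 0.759).

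Cd68, a lysosomal membrane glycoprotein widely used to stain macrophages, had a relative signal of 0.855, 0.432 and 1.04 in tumors, against 0.305, 0.164 and 0.0333 in healthy skins. All tumors lay above all healthy skins, and the probe was not well above background on healthy skin 3. It rose by a log2 fold change of 2.61 ± 0.79 (SE, n = 3 each, 95% interval 0.77 to 4.46, limma adjusted p = 0.0476). The call was lost on leaving out any of tumors 1, 2 and 3 and healthy skins 2 and 3. Without healthy skin 3 the log2 fold change was 1.70 with an adjusted p of 0.0592, and without healthy skin 3 and tumor 1 together it was 1.58 with an adjusted p of 0.116. The probe lies at chr11:69478979-69479038 on the minus strand of mm9.

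Msr1, the class A scavenger receptor that takes up modified lipoproteins, had 0.230, 0.523 and 1.62 in tumors, against 0.210, 0.0597 and 0.0108 in healthy skins. The groups did not overlap, but tumor 1 and healthy skin 1 were nearly level, and healthy skin 3 was not well above background. The log2 fold change of 3.50 ± 1.12 missed the threshold (SE, n = 3 each, 95% interval 0.89 to 6.10, limma adjusted p = 0.0555). A second probe gave 2.02 ± 0.72 (SE, n = 3 each, limma adjusted p = 0.0765 with every probe tested by itself). Msr1 passed in 7 of 20 other processing settings. Its probes lie at chr8:40689158-40689217 and chr8:40709296-40709355 on the minus strand of mm9.

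Cd14, the membrane co-receptor that hands lipopolysaccharide to TLR4, had a relative signal of 12.9, 7.27 and 28.0 in tumors, against 0.699, 1.06 and 0.526 in healthy skins. The lowest tumor lay well above the highest healthy skin. It rose by a log2 fold change of 4.24 ± 0.53, or 18.9-fold (SE, n = 3 each, 95% interval 3.01 to 5.47, limma adjusted p = 0.00216). Leaving out an array moved this between 3.73 and 4.70 with the call kept in all 6 fits. The probe lies at chr18:36884969-36885028 on the minus strand of mm9.

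Clec7a, also called dectin-1, the receptor for fungal beta-glucans, changed most of the 10 genes. It had 2.60, 5.58 and 21.8 in tumors, against 0.142, 0.220 and 0.102 in healthy skins. The tumors differed widely among themselves, and all were far above the healthy skins. It rose by a log2 fold change of 5.53 ± 0.74, or 46.2-fold (SE, n = 3 each, 95% interval 3.80 to 7.26, limma adjusted p = 0.00282). Without tumor 3 it was 4.69, and without tumor 1 it was 6.23, the lowest and the highest of the 6 fits that leave out an array. Clec7a and Cd14 passed in all 21 other settings tried, and only 0.574% of all features had a higher fold change than Clec7a. The Clec7a probe lies at chr6:129411739-129411798 on the minus strand of mm9.

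Mrc1, the mannose receptor CD206, which is common on resident and on alternatively activated macrophages, had 1.81, 1.75 and 3.90 in tumors, against 4.73, 5.004 and 1.46 in healthy skins. The groups overlapped, with healthy skin 3 lowest of all 6 arrays. The log2 fold change was -0.50 ± 0.56 (SE, n = 3 each, 95% interval -1.81 to 0.82, limma adjusted p = 0.537), and it passed in 1 of 21 other settings, with array weights, at -1.10. The probe lies at chr2:14253273-14253332 on the plus strand of mm9.

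Cd163, the scavenger receptor for haptoglobin-haemoglobin complexes and a marker of resident macrophages, was the only gene of the 10 called lower. Its probe is shown because it was near background on most arrays and its call rests on those values; it lies at chr6:124270436-124270495 on the plus strand of mm9.
Cd163 probe: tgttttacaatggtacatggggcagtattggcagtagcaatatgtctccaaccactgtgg

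The relative signal of Cd163 was 0.0177, 0.00407 and 0.0177 in tumors, against 0.112, 0.113 and 0.0297 in healthy skins. All tumors lay below all healthy skins, and the probe was well above background on 1 of 3 tumors and on 2 of 3 healthy skins. It fell with a log2 fold change of -2.73 ± 0.74 (SE, n = 3 each, 95% interval -4.46 to -1.003, limma adjusted p = 0.0336), a fold that depends on signals at the background level. Fitted on the values deposited by the authors it was -1.13, and with another background correction (normexp) it was -1.29. The call was lost on leaving out tumor 1, tumor 2, healthy skin 1 or healthy skin 2, with an adjusted p of up to 0.0903.

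**Figure D3:**
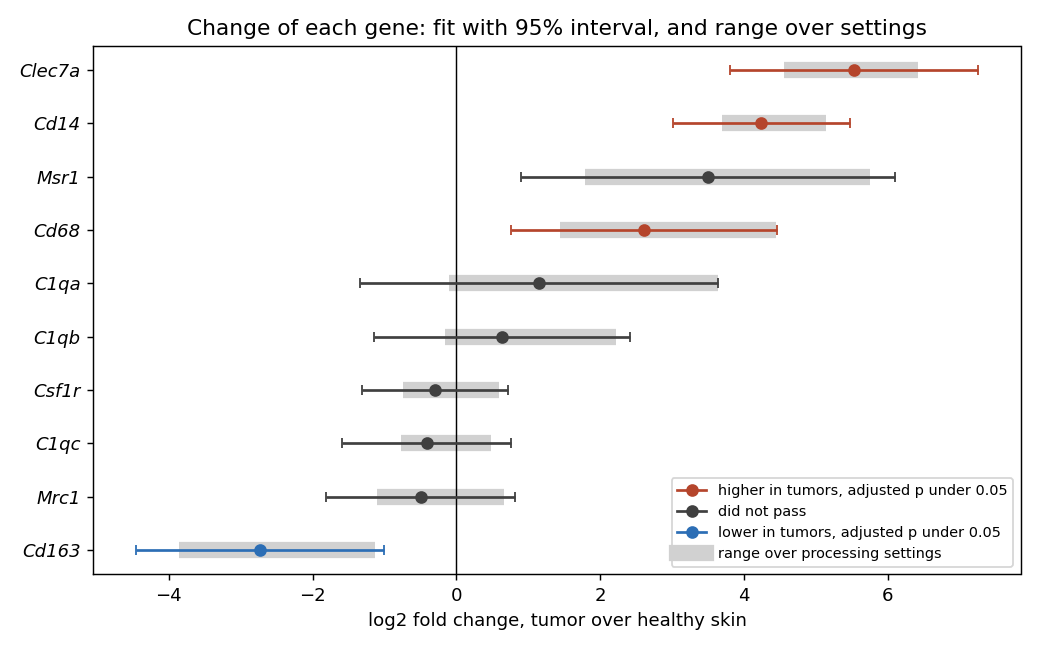
Log2 fold change of each gene, tumor over healthy skin (points), with its 95% interval (lines) and, in grey, the range of the fold change over the other processing settings. Clec7a, Cd14 and Cd68 passed upward and Cd163 downward, and the grey ranges of Csf1r, Mrc1 and all 3 C1q chains cross 0.

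The distance of the other 9 genes from Csf1r, taken on each array so that any array-wide scaling cancels, shows how far the markers moved apart. The log2 difference from Csf1r, tumor minus healthy skin, was 5.83 for Clec7a, 4.54 for Cd14, 3.80 for Msr1 and 2.91 for Cd68. These 4 were the genes in which the differences on the tumor arrays all lay above those on the healthy skin arrays. It was 1.44 for C1qa, 0.93 for C1qb, -0.12 for C1qc, -0.20 for Mrc1 and -2.43 for Cd163. With 3 arrays against 3 the two-sided exact permutation test cannot go below 0.1, the value of those 4 genes (0.225 after Benjamini-Hochberg adjustment over the 9 pairs), so none of the 9 differences could pass. Between the genes, the profiles over the 6 arrays that lay closest were those of Csf1r and C1qc, with a root mean square distance of 0.37 on the log2 scale, followed by C1qa and C1qb at 0.53. Cd14 and Clec7a were 0.91 apart and Cd68 and Msr1 0.97. C1qa and C1qc, chains of the same molecule, were 1.32 apart.

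Among features with a symbol, the profile nearest to the mean of the 3 C1q chains was that of H2-DMa, which helps load peptides onto class II molecules, at a root mean square distance of 0.24 on the log2 scale over 6 arrays. It was followed by Serpinc1 at 0.24, Slc29a3 and Olfr331 at 0.27 each, Fgd1 at 0.28 and Tmx4 at 0.29. The features nearest to Clec7a were D630010B17Rik, S100a8, which encodes a calcium-binding protein abundant in neutrophils, and the chemokine gene Ccl4, at 0.41 to 0.59. Among those nearest to Cd14 were Stfa2 and Gk, at 0.29 and 0.35. Among those nearest to Msr1 were C1qtnf6 at 0.66 and Ms4a6d at 0.67, and those nearest to Cd68 were Pla2g4e, A130010J15Rik and Bin2, at 0.30 to 0.34. Nearness over 6 arrays in 2 groups is easily reached and is given as a description.

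Promoters were looked at for the letters of 2 binding elements, GAGGAA on either strand (reverse TTCCTC), the core bound by PU.1, the factor of the macrophage lineage encoded by Spi1, and TGAGTCA on either strand (reverse TGACTCA), the AP-1 element through which phorbol esters act. In the 250 bases before the start of 32851 mouse transcripts of RefSeq on GRCm38.p6, 23.25% held GAGGAA and 4.46% held TGAGTCA. No match of the one overlapped a match of the other in the promoters shown. Promoters of 6 of the 10 genes were examined, of which C1qb, C1qc, Cd68, Clec7a and Mrc1 had GAGGAA and Cd163 had neither. The 5 are printed 5′ to 3′ on the strand of the gene, ending at the base before the start, with both motifs in capitals, to set the upstream letters of genes that rose beside those of genes that did not pass. They cover chr11:69666171-69666420 (minus strand) for Cd68, chr6:129472786-129473035 (minus strand) for Clec7a, chr4:136886201-136886450 (minus strand) for C1qb, chr4:136892915-136893164 (minus strand) for C1qc and chr2:14229164-14229413 (plus strand) for Mrc1.
Cd68 promoter: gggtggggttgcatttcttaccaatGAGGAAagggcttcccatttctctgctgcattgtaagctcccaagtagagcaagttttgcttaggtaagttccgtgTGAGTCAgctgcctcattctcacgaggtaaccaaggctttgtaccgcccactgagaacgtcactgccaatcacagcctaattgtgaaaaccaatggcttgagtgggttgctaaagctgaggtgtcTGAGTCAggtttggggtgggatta
Clec7a promoter: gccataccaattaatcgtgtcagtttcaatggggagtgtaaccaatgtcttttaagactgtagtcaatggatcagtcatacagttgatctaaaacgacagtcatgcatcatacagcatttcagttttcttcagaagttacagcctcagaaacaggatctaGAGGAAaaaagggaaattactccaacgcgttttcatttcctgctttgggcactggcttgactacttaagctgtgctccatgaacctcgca
C1qb promoter: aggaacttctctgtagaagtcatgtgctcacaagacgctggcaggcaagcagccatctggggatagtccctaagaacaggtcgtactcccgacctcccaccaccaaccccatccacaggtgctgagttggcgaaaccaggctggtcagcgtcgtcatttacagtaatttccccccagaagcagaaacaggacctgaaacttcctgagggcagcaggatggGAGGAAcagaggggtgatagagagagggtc
C1qc promoter: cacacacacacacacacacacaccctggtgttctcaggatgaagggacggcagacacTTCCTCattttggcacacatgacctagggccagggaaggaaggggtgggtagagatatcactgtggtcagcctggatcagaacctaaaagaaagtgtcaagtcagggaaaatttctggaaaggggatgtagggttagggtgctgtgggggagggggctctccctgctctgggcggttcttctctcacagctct
Mrc1 promoter: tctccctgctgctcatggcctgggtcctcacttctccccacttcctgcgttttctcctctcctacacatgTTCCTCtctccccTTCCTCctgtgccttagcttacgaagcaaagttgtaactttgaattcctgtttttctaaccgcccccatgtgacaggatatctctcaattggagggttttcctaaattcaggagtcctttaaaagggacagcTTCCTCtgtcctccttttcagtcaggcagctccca

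Mrc1 held GAGGAA 3 times, which 0.429% of the promoters do, at 180, 167 and 35 bases before the start and all on the opposite strand. Cd68 was the only gene of the 6 with TGAGTCA and held it 2 times, at 149 and 24 bases before the start, as 0.167% of the promoters do at least that often. Genes that rose (Cd68 and Clec7a) and genes that did not pass both held GAGGAA, so its letters did not separate them here. The promoter of Cd14, which also rose, was not among the 6 examined. Spi1 itself had a log2 fold change of 1.18 ± 0.66 (SE, n = 3 each, limma adjusted p = 0.216) and was well above background on 2 of 3 tumors and 2 of 3 healthy skins.

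Other genes of monocytes and macrophages mostly did not pass, and neither did most of all features, of which 25.9% were called. For this list and those below, the shares to compare are 10.3% of all features called higher and 15.6% called lower. The lists were chosen with earlier results of these data known, so their counts beside these shares are a description. No share over all features is given at an unadjusted p, so counts at that threshold are a description. Of 16 measured, Cx3cr1 rose, Itgam fell and 14 did not pass, with a list median log2 fold change of 1.23. At an unadjusted p under 0.05 in limma the counts were 5 higher and 1 lower. For Tyrobp, Ms4a7 and Ctss every tumor lay above every healthy skin, yet they did not pass (limma adjusted p = 0.0755, 0.0600 and 0.0741). In all others that did not pass the groups overlapped. Cx3cr1, the fractalkine receptor, had a log2 fold change of 2.93 ± 0.52 (SE, n = 3 each, limma adjusted p = 0.00809). Itgam, the CD11b chain shared with neutrophils, had -2.60 ± 0.50 (SE, n = 3 each, limma adjusted p = 0.0104) on its brightest probe, but its 3 probes ranged from -2.60 to 1.14. Adgre1, which encodes F4/80, had 0.710, 1.08 and 2.18 in tumors, against 1.33, 1.18 and 1.12 in healthy skins, with a log2 fold change of -0.03 ± 0.43 (SE, n = 3 each, limma adjusted p = 0.970).

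Genes of resident dermal macrophages, the group to which Cd163 and Mrc1 belong, fell in part and rose in no case that passed. Of 12 measured, 5 fell, against 15.6% of all features, and none rose, against 10.3%, with a list median of -1.86. At an unadjusted p under 0.05 in limma the counts were 8 lower and 0 higher. Lyve1, a hyaluronan receptor, had a log2 fold change of -2.85 ± 0.61, the coagulation factor gene F13a1 -2.24 ± 0.45, the TAM-receptor ligand gene Gas6 -3.07 ± 0.44, and the lectin genes Clec10a -3.00 ± 0.30 and Cd209f -3.70 ± 0.33 (SE, n = 3 each). Clec10a had 2.25, 3.21 and 3.72 in tumors, against 24.2, 27.1 and 20.8 in healthy skins. These 5 calls held in all 6 fits that leave out an array, and under scaling to the spike-in RNA, where the median of all features was 0.74, their log2 fold changes were -1.95, -1.34, -2.18, -2.10 and -2.80, of which Gas6 and Cd209f still passed. Folr2, Timd4, Cbr2, Ccl24, Igf1, Stab1 and Mgl2 did not pass, the last 2 with values above 0. The 5 probes of Igf1 ran from -1.47 to -0.18, and 1 of them was called lower with every probe tested by itself. Lymphatic endothelium also expresses Lyve1, and Gas6 is expressed by many cell types.

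Among 6 measured genes of alternative activation, Arg1 (7.76 ± 0.76), Chil3 (4.89 ± 0.61) and Il4ra (2.05 ± 0.31) rose and Retnla (-4.93 ± 1.08) fell, as log2 fold changes (SE, n = 3 each), with a list median of 1.81. Arg1, which encodes arginase 1, had 216, 210 and 101 in tumors, against 1.12, 1.78 and 0.222 in healthy skins. Among 8 genes of classical activation, 4 rose and none fell, also at an unadjusted p under 0.05 in limma: Il1b (6.02 ± 0.54), Il6 (3.90 ± 0.46), Tnf (2.36 ± 0.63) and Nos2 (1.35 ± 0.33). Il6 was well above background on 1 of 3 healthy skins, so its fold depends on signals at the background level; fitted on the values deposited by the authors it was 2.13 on the log2 scale. Cd80, not called on its brightest probe at 0.03, has a second probe at 4.34 that was called higher with every probe tested by itself. Of the 2 probes of Il4ra, 1 was called and the other had 0.84. Il1b had 7.35, 5.37 and 22.1 in tumors, against 0.107, 0.182 and 0.164 in healthy skins. The calls of Tnf and Nos2 held in 2 of the 6 fits that leave out an array, and those of Arg1, Chil3, Il4ra, Retnla, Il1b and Il6 in all 6. Genes of both activation lists rose in the same 3 tumors, and keratinocytes and neutrophils can express several of them.

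Receptors and signaling genes related to Clec7a and Cd14 rose in part. Of 8 measured relatives of Clec7a, 4 rose and none fell, with 5 and 0 at an unadjusted p under 0.05 in limma and a median of 1.29. Clec4e, the Mincle receptor, was at least 76.0-fold higher under the 75th percentile scaling, its probe being well above background in 3 of 3 tumors and in 0 of 3 healthy skins, Clec4d and Clec4n had log2 fold changes of 6.52 ± 0.80 and 3.64 ± 0.70, and the adaptor gene Bcl10 had 1.25 ± 0.35 (SE, n = 3 each). Fitted on the values deposited by the authors, the log2 fold change of Clec4e was 5.41. Syk, the kinase that Clec7a signals through, had 0.78 ± 0.50 and Tlr2 1.32 ± 0.57 (SE, n = 3 each, limma adjusted p = 0.282 and 0.123). Of 5 partners of CD14, Ly96, which encodes MD-2, and Myd88 rose by 1.30 ± 0.33 and 1.31 ± 0.31 (SE, n = 3 each, limma adjusted p = 0.0282 and 0.0226), and Tlr4 had 0.82 ± 0.45 (adjusted p = 0.207). The calls of Ly96, Myd88 and Bcl10 held in 2 of the 6 fits that leave out an array, and those of Clec4e, Clec4d and Clec4n in all 6.

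**Figure D4:**
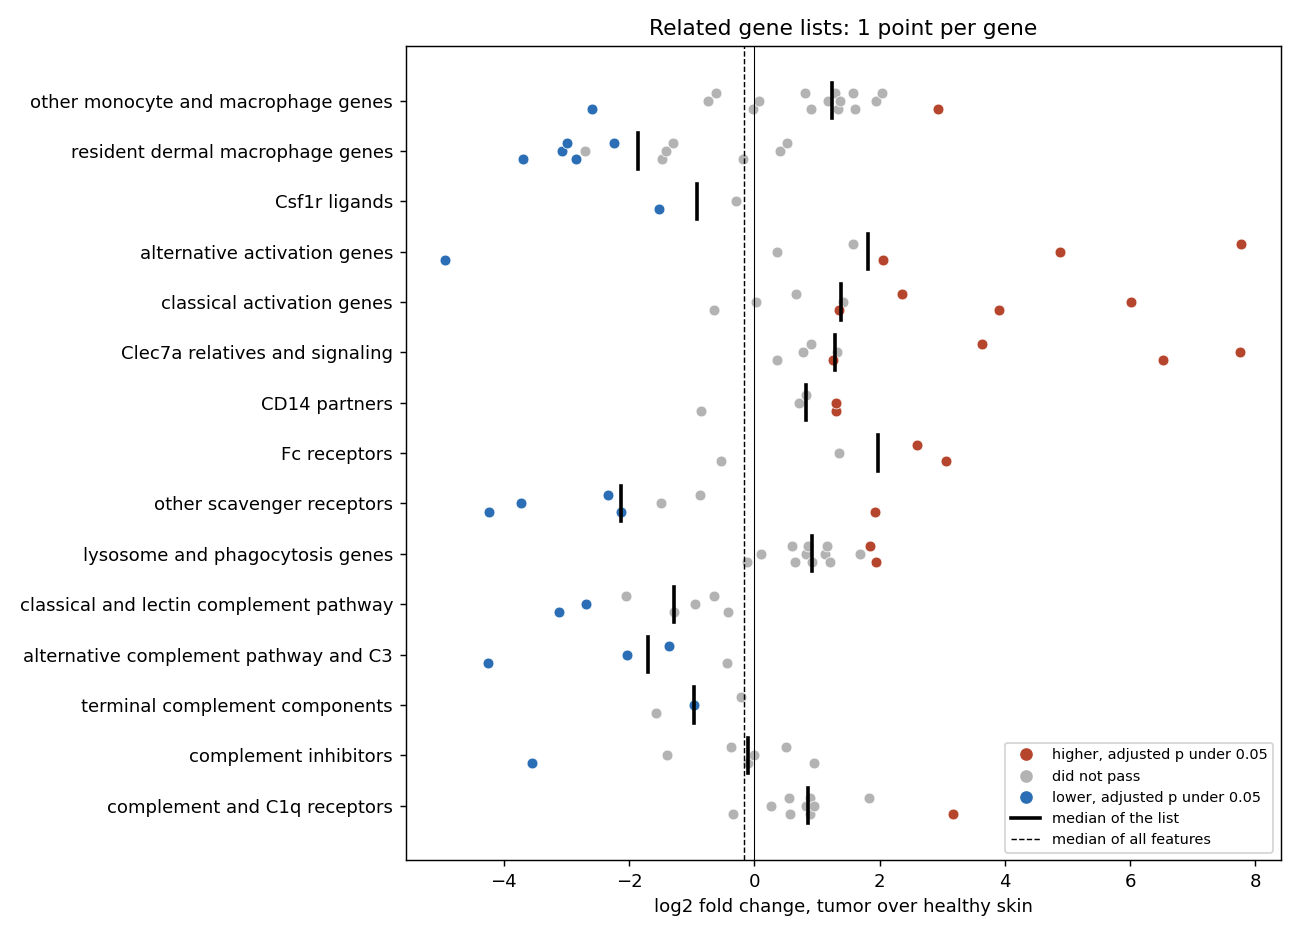
Log2 fold change, tumor over healthy skin, of each measured gene in 15 related lists (1 point per gene), with list medians as bars and the median of all features as a dashed line. Resident dermal macrophage genes, other scavenger receptors and early complement components lie mostly below 0, and activation genes, Clec7a relatives and Fc receptors mostly above.

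Scavenger receptors other than Msr1 and Cd163 went mostly down: of 7 measured, 4 fell and 1 rose, with a median log2 fold change of -2.13. Scara5, a ferritin receptor also made by fibroblasts, had -4.23 ± 0.46, Cd5l, an apoptosis inhibitor secreted by macrophages, had -3.72 ± 0.82, the fatty acid transporter gene Cd36 had -2.34 ± 0.68 and Scara3 had -2.13 ± 0.44, while the lysosomal receptor gene Scarb2 had 1.92 ± 0.47 (SE, n = 3 each). Leaving out an array kept the calls of Scara5 and Scara3 in all 6 fits, of Cd5l in 5, of Scarb2 in 3 and of Cd36 in 1. Under spike-in scaling the list median was -1.24, Scara5 and Scarb2 still passed, and Cd5l (-2.83), Cd36 (-1.44) and Scara3 (-1.24) did not, with limma adjusted p of 0.0712, 0.274 and 0.278. The Fc receptor genes Fcgr3 (2.59 ± 0.78) and Fcgr4 (3.06 ± 0.93) rose among 4 measured, with calls kept in 2 and 1 of the 6 fits that leave out an array. For Fcgr4 the groups overlapped, with 0.434 in tumor 1 against 0.494 in healthy skin 1. Its probe was well above background on 2 of 3 healthy skins. Of 13 lysosomal and phagocyte oxidase genes, the companions of Cd68, 2 rose and none fell, with 4 and 0 at an unadjusted p under 0.05 in limma: the protease genes Ctsd (1.84 ± 0.32) and Ctsl (1.95 ± 0.40). Lamp1, a general lysosome marker, had 0.10 ± 0.27 (SE, n = 3 each, limma adjusted p = 0.803). Lamp2, of the same list, had -0.11 on its brightest probe and 1.35 on a second probe. The second was called higher with every probe tested by itself.

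Among complement components and inhibitors other than C1q, the genes that passed fell, and among complement receptors Itgax rose. Of 7 measured genes of the classical and lectin pathways, C4b and Masp1 fell and none rose, with 4 lower and 0 higher at an unadjusted p under 0.05 in limma. C4b, the component cleaved by the C1 complex, had 5.85, 6.54 and 11.1 in tumors, against 59.1, 82.7 and 58.0 in healthy skins, a log2 fold change of -3.13 ± 0.35 (SE, n = 3 each, limma adjusted p = 0.00142). C1ra and C1s1, the proteases that bind C1q, had -0.94 ± 0.43 and -0.42 ± 0.58 (SE, n = 3 each, limma adjusted p = 0.145 and 0.621). Masp1 was at least 4.09-fold lower under the 75th percentile scaling, with 0 of 3 tumors well above background. Its fitted log2 fold change was -1.80 under spike-in scaling (limma adjusted p = 0.106) and -1.06 when fitted on the values deposited by the authors.

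Of 4 genes of the alternative pathway and C3, 3 fell: Cfd, the adipocyte-made factor D (-4.26 ± 0.91), C3 (-2.03 ± 0.45) and properdin, Cfp (-1.37 ± 0.42). The Cfd call held in 4 of 6 fits that leave out an array, the C3 call in 2 and the Cfp call in 1. Under spike-in scaling Cfd and Cd55 still passed, and C3, Cfp, C4b and Masp1 did not. Among 7 measured inhibitors Cd55, which speeds the decay of C3 convertases, fell to 0.263, 0.291 and 0.360 in tumors, against 3.23, 4.02 and 3.42 in healthy skins (log2 fold change -3.55 ± 0.27, SE, n = 3 each, limma adjusted p = 0.000512), and the other 6 did not pass. Of 3 measured terminal components C7 fell, with a call kept in 0 of the 6 fits that leave out an array. Of 10 receptors for C1q and complement fragments, Itgax, the CD11c chain of complement receptor 4, rose by 3.18 ± 0.63 (SE, n = 3 each, limma adjusted p = 0.0116), and the other 9, C5ar1, C3ar1 and Calr among them, did not pass on their brightest probes. The 2 probes of Lrp1, 1 of these 9, ran from 0.82 to 3.97, and 1 of them was called higher with every probe tested by itself. At an unadjusted p under 0.05 in limma, 4 of the 10 receptors were higher and 0 lower.

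Markers of other cell types also differed between the groups, some upward and some downward, and their part in the results was not tested. Of 8 measured neutrophil markers Retnlg, Cxcr2, Mmp8 and Ngp rose and none fell (1 was lower at an unadjusted p under 0.05 in limma), with Ngp and Mmp8 well above background in 0 of 3 healthy skins; the summed level of the list was 141 to 154 in tumors, against 194 to 263 in healthy skins, most of it from Csf3r. Neutrophils also carry Cd14 and Clec7a. Of 6 general leukocyte markers Cd53 and Lcp1 rose, and Ptprc had a log2 fold change of 0.96 ± 0.47 (SE, n = 3 each, limma adjusted p = 0.169), with a summed level of 26.0 to 75.5 in tumors, against 18.2 to 24.2 in healthy skins. Of 9 measured dendritic and Langerhans cell markers Cd207 and Clec9a fell. The summed level of that list was 25.1 to 92.5 in tumors, against 64.6 to 120.8 in healthy skins. All 5 skeletal muscle markers fell, with a summed level of 17.1 to 42.5 in tumors, against 523 to 982 in healthy skins. Of 4 measured adipocyte markers 3 fell, and Fabp4 did not pass, with a log2 fold change of 0.90. The summed level of the adipocyte list was 64.1 to 192 in tumors, overlapping the 47.9 to 166 in healthy skins. Of the remaining lists, Cd3g and Cd3e fell among 6 T cell markers, Krt1 and Krt10 among 6 keratinocyte markers and Vwf among 5 of endothelium. Col1a1 rose and Dcn fell among 6 fibroblast markers, and none of 5 mast cell markers passed in limma, nor at an unadjusted p under 0.05 (0 of 5). Leaving out an array kept the calls of Cd53, Krt1 and Col1a1 in 1 of 6 fits, of Lcp1 and Cd3e in 3 and of Clec9a, Krt10 and Adipoq in 4.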

How the data were processed

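Each of the 6 arrays was read from the scanner output that the authors deposited. Per the file headers, Agilent Feature Extraction 10.7.3.1 made the processed signal, an intensity on a linear scale after background subtraction. The series table deposited by the authors holds log2 values with column medians of 6.51 to 6.52; they rank probes as the processed signals do (Spearman 0.943 to 0.988), and how they were background-corrected and centred stays unknown. The submitters' processing notes name limma. All RNA had a RIN of 9, and 0.2 µg was labelled.

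Control spots and outlier-flagged spots were left out, the log2 processed signal minus each array's 75th percentile was taken, and spots of a probe were averaged. A probe was kept (34284 were) if at least 3 of 6 arrays had it well above background, with the brightest probe per gene, which gave 24757 features. Of these, 15276 were named through RefSeq accessions, 1015 by symbol and 178 by synonym, and 8288 kept the name in the file. The groups were fitted with lmFit and eBayes of limma 3.58.1 (R 4.3.3), two-sided, with Benjamini-Hochberg adjustment over all features and a threshold of 0.05. The script was tested on simulated data. Fold bounds set a probe not well above background in a group against the lowest signal well above background on each array. The number of arrays limits the precision. All arrays were on 1 slide, with healthy skins 1 and 2 in row 1 and the other 4 arrays in row 2.

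The 10 genes and the lists of related genes were chosen with earlier results of these data known. Named are the 10 genes, members of the lists, given first as counts, and the features whose profiles lie nearest, some of which are not reported here. The alternatives were other scalings, background correction, the authors' table, filters, probe rules, variance models, array weights, a fold threshold, blocks and fits without single arrays.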

Additional observations from a re-analysis of the deposited data

How the results depend on the processing

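The number of features called, 6420, was 2682 under spike-in scaling, 3920 with no detection filter, 9858 with array weights and 1666 with limma's treat against a log2 fold change of 1, and 3840 to 5458 without single arrays (3840 without tumor 2, 4056 without healthy skin 2). The split into higher and lower calls was 2553 and 3867, and 4386 and 2586 under median scaling and 1906 and 776 under spike-in scaling, with an overall median of 0.74 on the log2 scale. The count of higher calls among the 10 genes, 3, was 5 when slide row was a block and 2 to 4 without single arrays. The count of lower calls, 1 (Cd163), was 0 under spike-in scaling, with no detection filter, with the slide row as a block, with treat, and where a probe had to be above background on all 6 arrays, which left Cd163 untested; it was 2 with array weights, where Mrc1 also passed (-1.10, limma adjusted p = 0.0476), and 0 to 1 without single arrays. Of 9 differences from Csf1r, 6 exceeded 1 on the log2 scale, and 5 to 7 did so without single arrays.

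The log2 fold change of Csf1r turned to 0.0697 under median scaling, 0.60 under spike-in scaling, 0.0892 with the mean of its probes, 0.0950 without tumor 1 and 0.0832 without healthy skin 3 and tumor 1. That of Mrc1 turned to 0.40 under spike-in scaling and 0.66 when slide row was a block, that of C1qc to 0.48 under spike-in scaling and 0.13 without tumor 1, and without healthy skin 3 that of C1qa to -0.10 and that of C1qb to -0.15. Without single arrays the values ran from -0.74 to 0.10 for Csf1r, -0.10 to 2.01 for C1qa, -0.15 to 1.26 for C1qb and -0.77 to 0.13 for C1qc. None of these values passed the test, and the cause was not tested. Replicate numbers only follow the order of the samples, and the labels give no pairing. Deviations of same-numbered arrays correlated at 0.10, 0.13 and -0.08, and those of differently numbered arrays at -0.27 to 0.17. With 3 arrays per group these values can neither show nor exclude a pairing. A fit with the replicate block called 5470 features, with 3 of the 10 genes higher and 1 lower. Signals near background limit Cd163, and the healthy skin 3 values of Cd68 and Msr1.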
